A study of Mus musculus with 15 samples.

Results

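The nuclear genes that encode the mitochondrial respiratory chain and the ATP synthase were followed through the differentiation of mouse embryonic stem (ES) cells into paraxial mesoderm, the embryonic tissue that gives rise to the somites. Members were taken from the array annotation by symbol: genes starting with Ndufa, Ndufb, Ndufc, Ndufs or Ndufv (complex I), Uqcr (complex III), Cox4 to Cox8 (complex IV) or Atp5 (complex V, the ATP synthase), together with Sdha to Sdhd (complex II) and Cycs (cytochrome c). The rule found 91 of the 18193 genes on the array that have a probe set of their own. Of these, 83 are subunits or cytochrome c and 8 are complex I assembly factors, whose symbols begin with Ndufaf and so match the prefix. By symbol the subunits comprise 36 of complex I, 4 of complex II, 8 of complex III, 17 of complex IV and 17 of complex V.

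RNA from 15 cell samples was measured on Affymetrix mouse arrays, with 3 biological replicates in each of 5 groups. The day 0 group was unsorted, undifferentiated E14 ES cells of strain 129P2, kept on fibroblast feeders with 1500 U/ml LIF and the 2i inhibitors CHIRON99021 (of GSK3) and PD0325901 (of MEK), and passaged once without feeders. All 4 differentiated groups had received BMP4 at 10 ng/ml for 2 days in serum-free medium and then 0.5% DMSO with 0.1 µM of the BMP receptor inhibitor LDN193189 (the number after LDN varies between sample labels). CDL medium contained CHIRON99021 at 1 µM in addition, and RDL medium contained the Wnt co-activator Rspo3 at 10 ng/ml in its place. At day 4, CDL and RDL cells of the E14 line were sorted as Msgn1-repV positive, Msgn1 being a transcription factor of presomitic mesoderm. At day 6, CDL and RDL cells of another line, CK35 of strain 129Sv, were sorted as Pax3GFP positive. Day 6 therefore differed from day 4 and from day 0 also in line, strain and sort reporter, and these cannot be told apart from time. Each line is a single line, and cells negative for the reporter were not in the samples.

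Complexes I, III and IV pass electrons from NADH to oxygen through ubiquinone and cytochrome c and pump protons across the inner mitochondrial membrane, complex II feeds in electrons from succinate, and the ATP synthase uses the proton gradient to make ATP. Most of the subunits are encoded in the nucleus, and several subunits of complex IV and of the ATP synthase exist as alternative isoforms from separate genes, some of which are known from heart and skeletal muscle or from testis. Naive ES cells are known to respire as well as to run glycolysis, whereas presomitic mesoderm is known for strong aerobic glycolysis.

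Signals were intensities on a linear scale. Tests compared group means of log2(intensity + 12.6) with limma, and a gene was called when its Benjamini-Hochberg adjusted p over the 12400 genes tested was under 0.05. Differences are log2 differences on that scale, so the fold of a dim gene comes out too small. Of the 91 members, 88 were bright enough to be tested, and 86 lay above the median of their array on all 15 arrays. Cox7b2, Cox8b and Ndufb4 were too dim on the probe sets used, which does not show that these genes are not expressed. Array medians lay between 29.4 and 31.2. The members carried 3.76% to 3.83% of the summed signal of all 18193 genes in ES cells, 3.46% to 3.54% and 3.45% to 3.56% in CDL and RDL cells at day 4, and 3.83% to 4.18% and 3.65% to 4.14% in CDL and RDL cells at day 6. In bulk samples, fewer cells of a type and less RNA per cell cannot be told apart.

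Some arrays stood apart from their mates before any member was looked at. In CDL day 4 replicate 1 the summed intensity of 7 ES cell markers was 4993, against 601 and 495 in the other CDL day 4 replicates, 483 to 631 in RDL day 4 cells and 18569 to 18923 in ES cells. The 6 arrays of day 6 fell into 2 sets that cut across the media. Over the 12312 tested genes that are not members, the deviations from the group mean of RDL replicate 1 correlated at 0.61 and 0.34 with those of CDL replicates 1 and 3 and at -0.64 with those of CDL replicate 2, while RDL replicates 2 and 3 correlated at 0.59 and 0.54 with CDL replicate 2. Of all arrays, RDL day 6 replicate 1 correlated least with the other arrays of its group (mean 0.978) and had the highest 3' to 5' ratio of actin, 1.90. That ratio, a sign of RNA quality, was 1.43 to 1.60 on the 6 arrays of day 4, against 1.77 to 1.85 on the ES arrays, and its part in the day 4 results was not tested. The ratio of Gapdh lay between 0.974 and 1.11 on all arrays. Presomitic mesoderm markers were bright at day 4, with all 6 on the array above the array median in both media. Markers of somites and anterior presomitic mesoderm, taken as 1 list, summed to 5726 to 9077 in CDL and 3090 to 4869 in RDL cells at day 6. In ES cells they summed to 332 to 383. At day 4 the same markers summed to 1765 to 2434 in CDL and 4059 to 4177 in RDL cells. The RDL values of day 4 thus lay within the RDL range of day 6. A list of 7 fibroblast genes, which mesoderm also expresses, summed to 5192 to 7064 in CDL and 7738 to 10086 in RDL cells at day 6, against 179 to 200 in ES cells, and its part in the day 6 results was not tested.

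At day 4 more members were lower than higher relative to ES cells. In CDL cells 36 of the 88 tested members were lower and 5 were higher, where 29.6% and 26.6% of all genes tested were lower and higher and 56.2% were called in all. In RDL cells 33 were lower and 7 were higher, where 29.5% and 27.6% of all genes tested were lower and higher and 57.1% were called in all. The share of members called lower, 40.9% in CDL and 37.5% in RDL cells, thus lay above that of all genes, and the share called higher, 5.68% and 7.95%, lay below it. The differences were small. The median over the tested members was -0.17 in CDL and -0.14 in RDL cells, against -0.02 and -0.01 over all genes, and 74 and 76 of the 88 members lay within 0.5 of ES cells. The same 30 members were lower in both media and the same 5, Cox7a2, Ndufa8, Ndufaf4, Ndufb7 and Ndufs3, were higher in both. Both comparisons share the ES arrays. The matching overlap over all genes tested was not counted, so these overlaps cannot be read as particular to the members.

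At day 6 calls against ES cells leaned higher in CDL cells and were even in RDL cells. In CDL cells 26 members were higher and 17 were lower, where 27.8% and 33.3% of all genes were higher and lower and 61% were called in all. In RDL cells 20 members were higher and 20 were lower, where 28.3% and 33.3% of all genes were higher and lower and 61.6% were called in all. The share of members called higher was near that of all genes in CDL cells (29.5%) and below it in RDL cells (22.7%), and the share called lower, 19.3% and 22.7%, lay below that of all genes in both. The members' medians were 0.03 in CDL and -0.02 in RDL cells, and the same 18 members were higher and the same 17 lower in both media. Across the 4 comparisons with ES cells, 15 members were lower in every one (Atp5a1, Atp5b, Atp5g1, Atp5j2, Atp5l, Cox5a, Cox6b2, Cox7a1, Ndufaf5, Ndufaf6, Ndufv2, Ndufv3, Uqcr10, Uqcrb and Uqcrq), 3 were higher in every one (Ndufa8, Ndufaf4 and Ndufb7) and 23 were called in none. The 4 comparisons share the same 3 ES arrays, so these counts do not add independent support to each other. Such joint counts were not made over all genes tested, so they cannot be read as particular to the members.

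**Figure D1:**
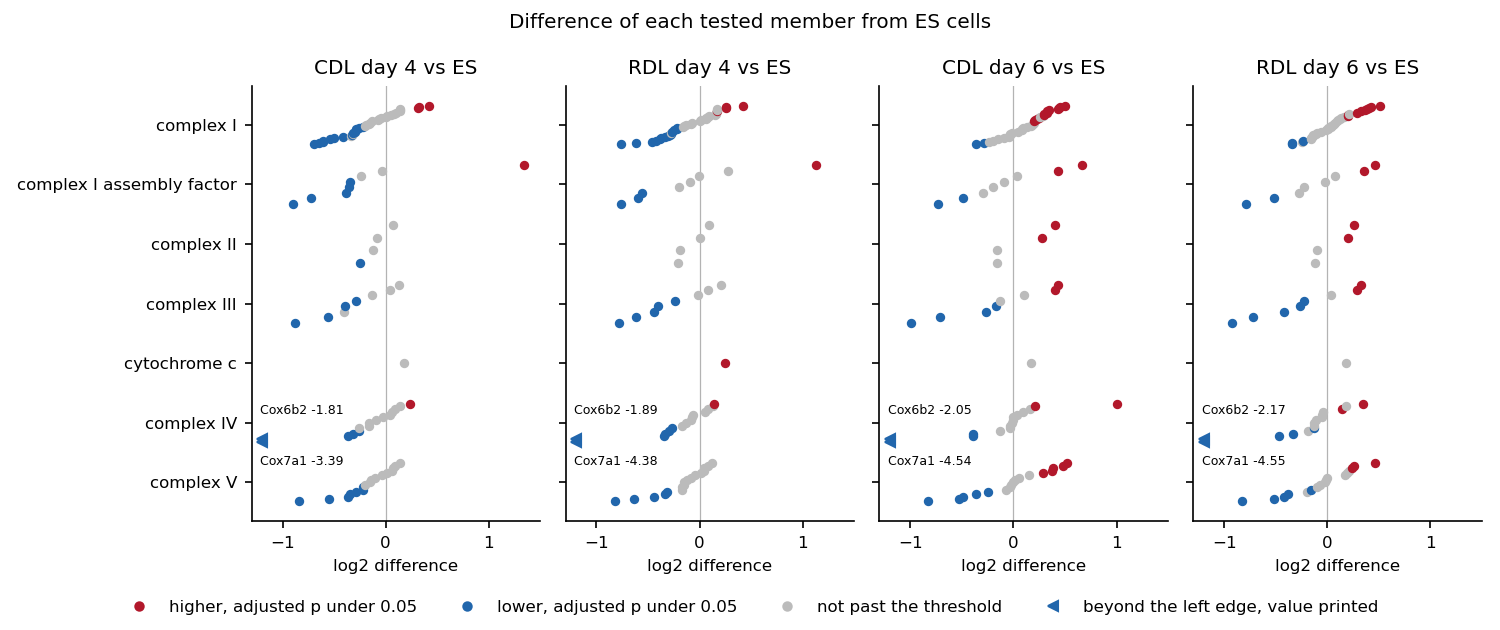
Log2 difference from ES cells of each of the 88 tested members (points), by complex (rows), in CDL and RDL cells at day 4 and at day 6 (panels); red and blue points passed the test, grey points did not, and Cox6b2 and Cox7a1 lie beyond the left edge with their values printed. Most points lie within 0.5 of zero, and the complex I points sit further right at day 6 than at day 4.

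The strongest single changes were losses of isoforms of cytochrome c oxidase, complex IV, which reduces oxygen to water. Cox7a1, the heart and skeletal muscle isoform of subunit 7a, read 185, 30.5 and 29.0 in CDL and 20.6, 23.0 and 25.8 in RDL cells at day 4, against 664, 752 and 781 in ES cells. At day 6 Cox7a1 read 17.5, 23.4 and 17.6 in CDL and 23.8, 16.9 and 17.1 in RDL cells. The ES arrays stood far above all 12 others, and apart from CDL day 4 replicates 1 and 2 every differentiated array lay below its array's median. The log2 differences of Cox7a1 were -3.39 and -4.38 in CDL and RDL cells at day 4 and -4.54 and -4.55 at day 6, with a standard error of 0.39 and adjusted p-values of 2.1e-06 or less. The one high differentiated value belonged to the CDL replicate that carried ES marker signal, and without it the CDL day 4 difference was -4.14. A list of 6 cardiac and skeletal muscle markers summed to between 111 and 176 on all 15 arrays.

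Cox6b2, the testis isoform of subunit 6b, followed the same course at a smaller size. It read 226, 153 and 120 in CDL and 156, 148 and 152 in RDL cells at day 4, against 586, 587 and 615 in ES cells. At day 6 Cox6b2 read 135, 137 and 130 in CDL and 139, 120 and 111 in RDL cells. No differentiated array overlapped the ES arrays, and the log2 differences were -1.81 and -1.89 in CDL and RDL cells at day 4 and -2.05 and -2.17 at day 6 (adjusted p at most 8.2e-08). Again the highest differentiated value was in CDL day 4 replicate 1, and without it that difference was -2.04. Cox7b2, the testis isoform of subunit 7b, was too dim to test. It read 14.1, 10.4 and 8.2 in CDL and 7.1, 8.3 and 8.2 in RDL cells at day 4, against 24.1, 50.5 and 43.5 in ES cells, so that only 2 ES arrays exceeded the array median.

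**Figure D2:**
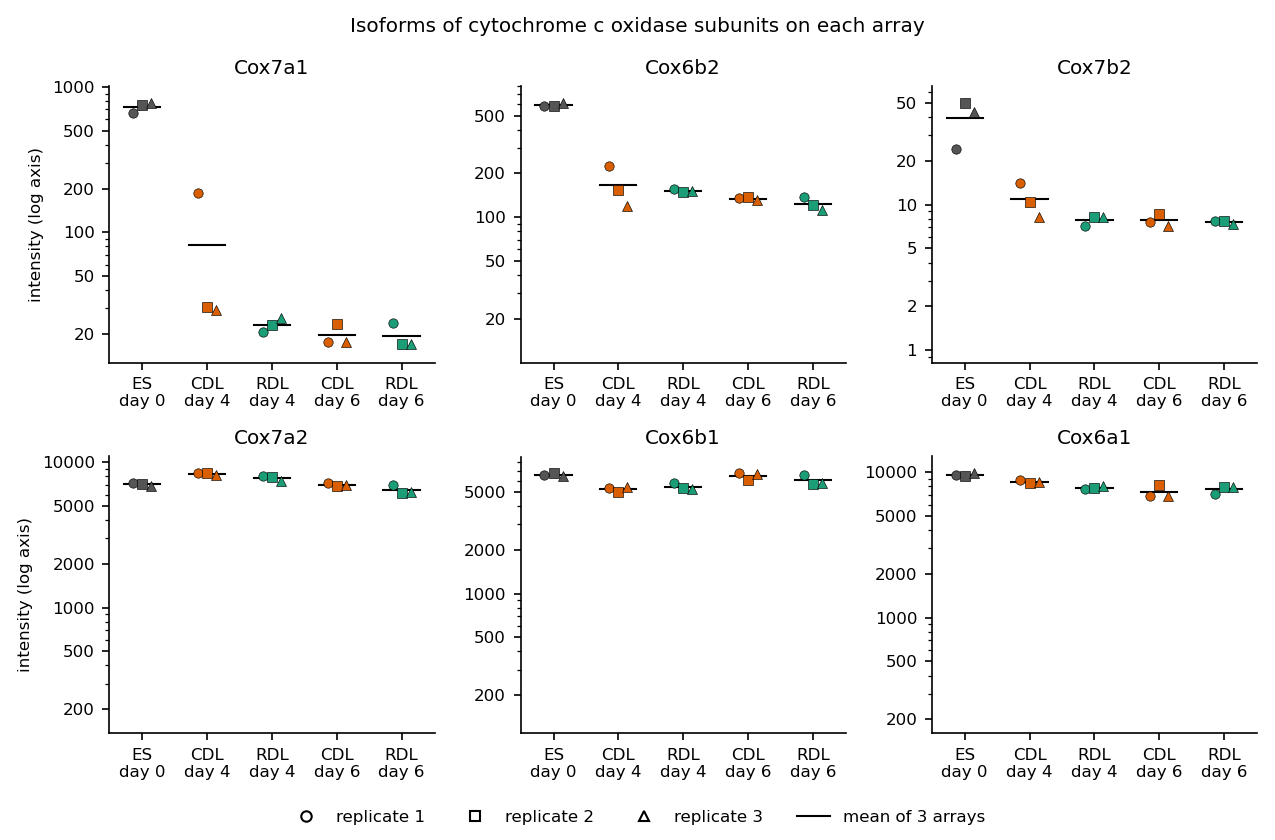
Intensity (log axis, each panel spanning the same ratio) of 6 cytochrome c oxidase genes on each of the 15 arrays, by group, with the mean of 3 arrays as a line. Cox7a1 and Cox6b2 separate the ES arrays from all others, Cox7b2 is dim throughout, and the counterparts Cox7a2, Cox6b1 and Cox6a1 stay within a narrow range.

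The isoforms found in most tissues changed far less. Cox7a2, the ubiquitous counterpart of Cox7a1, read 8422, 8441 and 8174 in CDL and 8004, 7950 and 7391 in RDL cells at day 4, against 7236, 7131 and 6848 in ES cells. All 6 day 4 arrays were above the 3 ES arrays, with log2 differences of 0.24 (adjusted p = 0.0012) in CDL and 0.14 (adjusted p = 0.038, not kept in 9 of 27 alternative settings) in RDL cells. At day 6 Cox7a2 differed from ES cells by -0.01 in CDL and -0.13 in RDL cells, and this RDL call was lost in 13 of 27 alternative settings. Cox6b1, the counterpart of Cox6b2, was lower at day 4 by -0.32 in CDL and -0.27 in RDL cells and was not called at day 6 (-0.02 and -0.13). Cox6a1, the common isoform of subunit 6a, was lower than in ES cells by -0.40 in CDL and -0.33 in RDL cells at day 6, and at day 4 by -0.30 in RDL cells, while the CDL value of -0.16 did not pass (adjusted p = 0.051).

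The isoforms known from lung, muscle or testis that remain were dim or not called. Cox4i2, the isoform of subunit 4 known from lung and from low oxygen, read between 24.4 and 34.8 on all 15 arrays and was not called in any comparison, nor was its common counterpart Cox4i1, whose log2 differences from ES cells ran from -0.08 to 0.10. Cox6a2, the muscle isoform of subunit 6a, read between 68.0 and 98.6, and Cox8c, a testis isoform of subunit 8, between 111 and 161, with no call for either. Cox8b, the muscle isoform of subunit 8, read at most 27.4 on any array. Cox8a, the common isoform, was lower at day 4 by -0.36 in CDL (adjusted p = 0.0077) and -0.34 in RDL cells (adjusted p = 0.011) and not called at day 6. Without RDL day 4 replicate 2, which read 1957 against 2865 and 2597 in its mates, the RDL difference of Cox8a was -0.18 and did not pass. Cox5a, a subunit found in most tissues, was lower in all 4 groups, by -0.26 and -0.33 in CDL and RDL cells at day 4 and by -0.39 and -0.47 at day 6. Over the 15 tested genes of complex IV, 5 were lower and 1 higher in CDL and 6 lower and 1 higher in RDL cells at day 4, and the median difference was -0.16 and -0.13. At day 6 the counts were 4 lower and 2 higher in CDL and 5 lower and 2 higher in RDL cells. As shares, 33.3% were lower in CDL and 40% in RDL cells at day 4, where 29.6% and 29.5% of all genes were. At day 6 the shares called lower were 26.7% and 33.3%, where 33.3% of all genes were lower in each medium. The share called higher was 6.67% in each medium at day 4 and 13.3% at day 6, where 26.6% to 28.3% of all genes were.

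The start-site regions of Cox7a1 and Cox6b2 are shown because these genes carry the largest changes, in mouse build GRCm38.p6 from RefSeq, as the 150 bases before the start site, 5′ to 3′ on the gene's strand. The Cox7a1 stretch lies at chr7:30184021-30184170 on the plus strand and the Cox6b2 stretch at chr7:4753095-4753244 on the minus strand. None of the 4 motifs described below was found in either gene's window, so no letters are in capitals.
Cox7a1: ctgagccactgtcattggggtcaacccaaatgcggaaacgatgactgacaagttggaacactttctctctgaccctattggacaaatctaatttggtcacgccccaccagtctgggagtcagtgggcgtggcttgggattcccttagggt
Cox6b2: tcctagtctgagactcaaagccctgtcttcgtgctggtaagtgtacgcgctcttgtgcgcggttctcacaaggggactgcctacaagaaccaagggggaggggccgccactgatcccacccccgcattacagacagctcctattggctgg

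Complex I, the NADH dehydrogenase that is the entry point of most electrons, was mostly lower at day 4 and mostly higher at day 6 among its called subunits. At day 4, 14 of its 35 tested subunits were lower and 3 higher in CDL cells, and 14 lower and 4 higher in RDL cells. At day 6, 2 were lower and 13 higher in CDL cells, and 3 lower and 9 higher in RDL cells. As shares of the 35, 40% were lower and 8.57% higher in CDL and 40% lower and 11.4% higher in RDL cells at day 4, where 29.6% and 26.6% and 29.5% and 27.6% of all genes were. At day 6, 5.71% were lower and 37.1% higher in CDL and 8.57% lower and 25.7% higher in RDL cells, where 33.3% and 27.8% and 33.3% and 28.3% of all genes were. The mean level of the 35 genes, set to 0 in ES cells (array values -0.01 to 0.01), lay at -0.14, -0.20 and -0.17 on the CDL and -0.07, -0.12 and -0.13 on the RDL arrays at day 4. At day 6 it lay at 0.20, -0.02 and 0.21 on the CDL and 0.20, -0.03 and -0.00 on the RDL arrays. All 6 day 4 arrays were thus below the ES arrays, while at day 6 the arrays split along the 2 sets seen over the other genes, with RDL replicate 1 and CDL replicates 1 and 3 above ES cells and the other 3 arrays close to them.

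**Figure D3:**
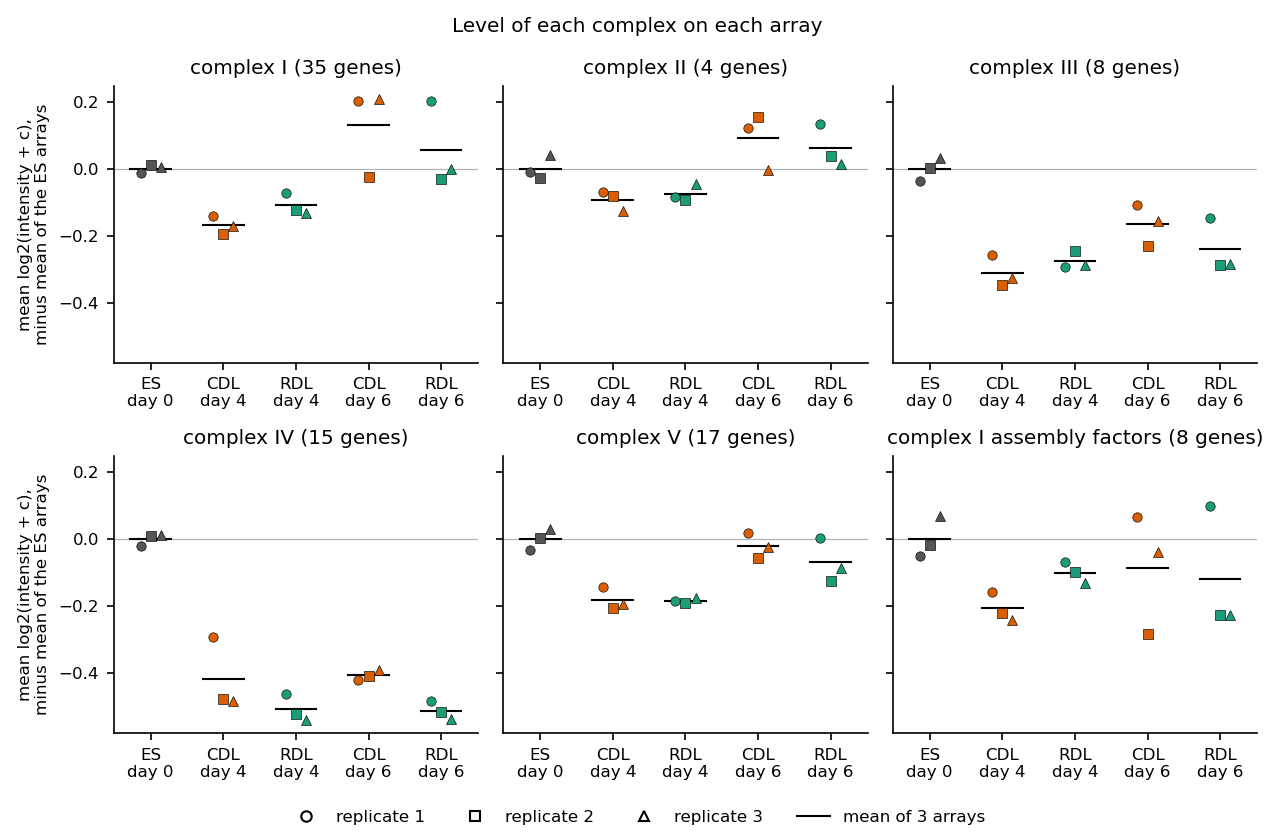
Mean log2 level of the tested genes of each complex on each array, minus the mean of the ES arrays (vertical axis), by group; symbols mark the replicate number and lines the mean of 3 arrays. Every set shown lies below the ES arrays on all day 4 arrays, and at day 6 the complex I arrays split into 3 near 0.20 and 3 near zero. The complex IV means at day 4, -0.42 in CDL and -0.51 in RDL cells, are pulled down by Cox7a1 and Cox6b2. The median differences over its 15 genes were -0.16 and -0.13.

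Ndufv3, an accessory subunit of the NADH-oxidising arm, fell most at day 4. It read 1813, 1429 and 1406 in CDL and 1471, 1488 and 1429 in RDL cells, against 2405, 2496 and 2572 in ES cells. The groups did not overlap, and the log2 differences were -0.69 in CDL and -0.76 in RDL cells (standard error 0.10, adjusted p = 1.8e-05 and 5.7e-06). At day 6 Ndufv3 read 2033, 1788 and 1976 in CDL and 2354, 1946 and 2039 in RDL cells, with differences from ES cells of -0.37 and -0.24; the RDL call was lost in 13 of 27 alternative settings. Catalytic subunits of the same arm moved with it at day 4. Ndufv2, which carries an iron-sulphur cluster, was lower by -0.54 in CDL and -0.42 in RDL cells, Ndufs1 by -0.50 and -0.38, and Ndufv1, which binds NADH and flavin, by -0.22 and -0.27.

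The subunits of the ubiquinone-reducing part did not all move alike. Ndufs8, which holds 2 iron-sulphur clusters, read 2009, 1686 and 1747 in CDL and 2247, 2167 and 1941 in RDL cells at day 4, against 2700, 2838 and 2761 in ES cells. All 6 day 4 arrays were below ES cells, by -0.61 in CDL (adjusted p = 7e-05) and -0.39 in RDL cells (adjusted p = 0.0033). Ndufs7 was lower by -0.28 and -0.22. Ndufs3 was higher, reading 1568, 1580 and 1553 in CDL and 1340, 1545 and 1655 in RDL cells against 1141, 1244 and 1403 in ES cells, and the RDL arrays overlapped those of ES cells. The log2 differences of Ndufs3 were 0.31 in CDL and 0.26 in RDL cells at day 4, and the adjusted p-values of 0.0089 and 0.026 exceeded 0.05 when ES replicate 1 was left out (0.057 and 0.14). The RDL call was also lost without ES replicate 2 or RDL replicate 2 or 3.

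Among the accessory subunits, Ndufb7 and Ndufa8, both on the intermembrane side of the enzyme, were higher than in ES cells in every group. Ndufb7 read 1820, 1752 and 1786 in CDL and 2048, 1860 and 1841 in RDL cells at day 4, against 1358, 1464 and 1451 in ES cells. At day 6 it read 1920, 1924 and 2211 in CDL and 2114, 1987 and 2009 in RDL cells. Every differentiated array was above every ES array, and the differences were 0.32 and 0.42 in CDL and RDL cells at day 4 and 0.50 and 0.51 at day 6 (adjusted p at most 0.0015). Ndufa8 was higher by 0.42 and 0.26 at day 4 and by 0.30 and 0.43 at day 6, in CDL and RDL cells in turn, and its RDL day 4 call was lost without ES replicate 1 or 2. Ndufab1, the mitochondrial acyl carrier protein, was called at day 4 in RDL cells at 0.17 and at day 6 in CDL cells at 0.21, but with the mean of its probe sets these were 0.07 (adjusted p = 0.47) and 0.05 (adjusted p = 0.56).

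Ndufa6, an accessory subunit next to the ubiquinone-reducing part, was below ES cells at day 4 and near them at day 6. It read 1145, 981 and 1068 in CDL and 1109, 1032 and 1031 in RDL cells at day 4, against 1590, 1632 and 1656 in ES cells. At day 6 Ndufa6 read 2187, 1864 and 1810 in CDL and 1797, 1293 and 1367 in RDL cells. The day 4 arrays were all below ES cells (-0.61 in CDL, adjusted p = 0.00023, and -0.62 in RDL cells, adjusted p = 0.00019), and at day 6 the differences of 0.26 in CDL and -0.14 in RDL cells did not pass. Ndufa4 is grouped here by its symbol, although it is now known as a subunit of complex IV. It was not called in any comparison, and neither was its paralogue Ndufa4l2, which read between 47.8 and 68.7 on all arrays. Ndufa10 was higher at day 6 only among the calls, by 0.44 in CDL and 0.41 in RDL cells, against 0.05 and 0.00 at day 4.

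**Figure D4:**
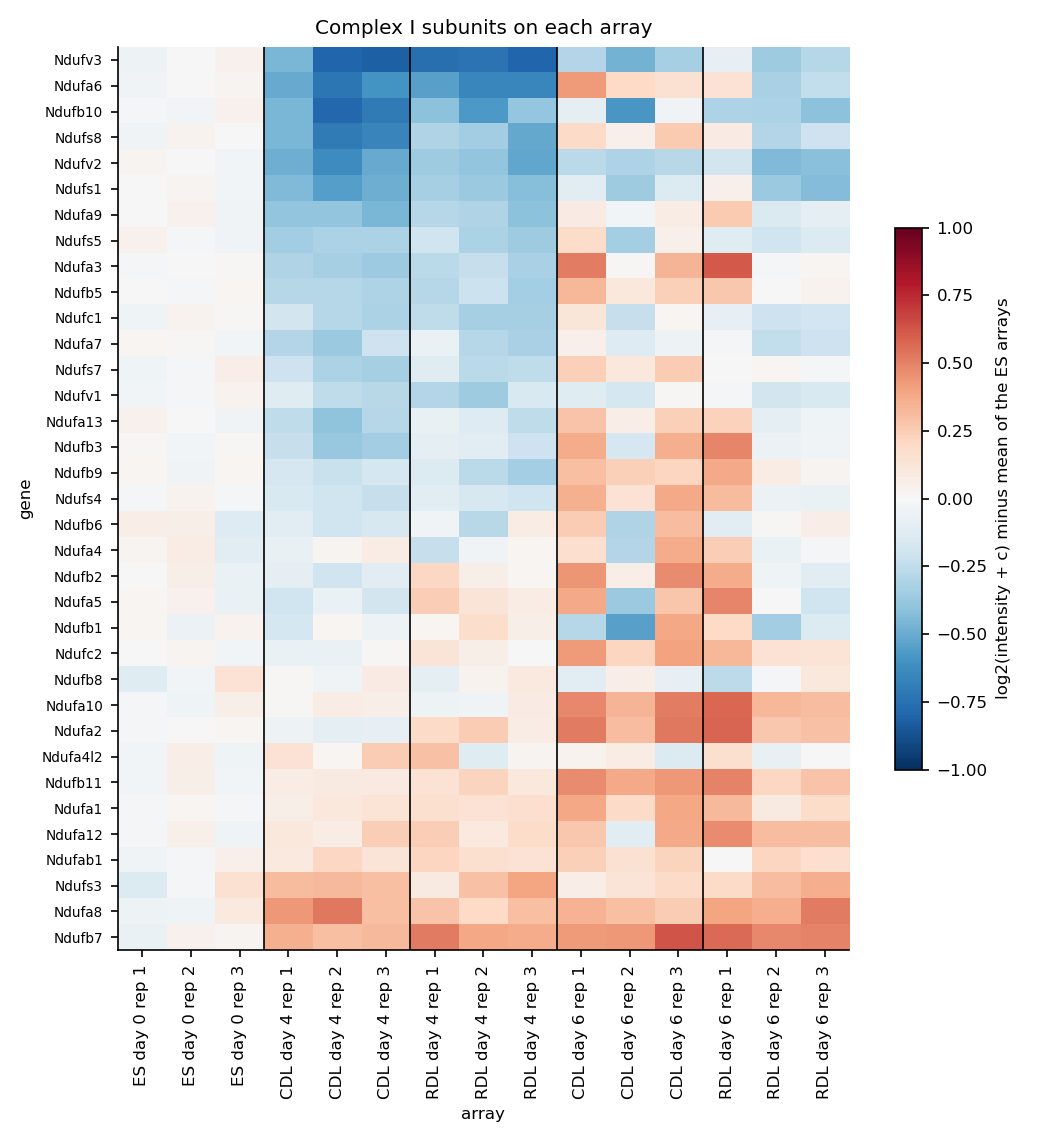
Each of the 35 tested complex I subunits (rows, ordered by their mean at day 4) on each array (columns, by group), as log2(intensity + 12.6) minus the mean of the ES arrays, from blue (lower) to red (higher). Most rows are blue at day 4 with Ndufb7, Ndufa8 and Ndufs3 red at the bottom, and at day 6 RDL replicate 1 and CDL replicates 1 and 3 are redder than the other 3 arrays.

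The assembly factors, which build complex I and are not part of it, went apart. Ndufaf4 had the largest increase of any member at day 4. It read 1823, 2229 and 2187 in CDL and 1865, 1875 and 1653 in RDL cells, against 802, 793 and 839 in ES cells. At day 6 Ndufaf4 read 1395, 1087 and 1412 in CDL and 1154, 929 and 1041 in RDL cells, between the ES and the day 4 values. Its log2 differences from ES cells were 1.34 in CDL (adjusted p = 7.0e-08) and 1.13 in RDL cells (adjusted p = 3.5e-07) at day 4, and 0.66 (adjusted p = 0.0001) and 0.35 (adjusted p = 0.014) at day 6. The RDL call at day 6 was lost without RDL replicate 1 and with the mean of its 2 probe sets, where it was 0.11. Ndufaf3, which works together with Ndufaf4 in assembly, was lower at day 4, by -0.73 in CDL and -0.55 in RDL cells, and was not called against ES cells at day 6.

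Ndufaf5, which hydroxylates Ndufs7 during assembly, and Ndufaf6 were lower in all 4 groups. Ndufaf5 read 165, 136 and 138 in CDL and 155, 162 and 166 in RDL cells at day 4, against 267, 275 and 308 in ES cells, with no overlap. The log2 differences of Ndufaf5 were -0.90 and -0.77 in CDL and RDL cells at day 4 and -0.49 and -0.52 at day 6. Ndufaf6 differed by -0.35 and -0.59 at day 4 and by -0.73 and -0.79 at day 6, and its CDL day 4 value was -0.23 and did not pass without ES replicate 3. Ndufaf2 was higher at day 6, by 0.44 in CDL and 0.46 in RDL cells, and the CDL call was lost without CDL replicate 1 or 3 or ES replicate 1, the RDL call without RDL replicate 1. Among 8 tested complex I assembly factors with other symbols, 4 were lower and none higher in CDL and 4 lower and 2 higher in RDL cells at day 4. Of all genes tested, 29.6% were lower and 26.6% higher in CDL and 29.5% and 27.6% in RDL cells at that day. Nubpl, which supplies iron-sulphur clusters to complex I, was lower by -0.94 and -0.86 in CDL and RDL cells at day 4 and by -0.69 and -0.63 at day 6.

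Complex III, which moves electrons from ubiquinol to cytochrome c, had the highest share of members below ES cells in RDL cells, 5 of 8 at day 4 with none higher, and 4 of 8 in CDL cells with none higher. At day 6, 4 were lower and 2 higher in CDL and 5 lower and 2 higher in RDL cells. The share called lower was 50% in CDL and 62.5% in RDL cells on both days. Of all genes, 29.6% and 29.5% were lower at day 4 and 33.3% in each medium at day 6. The share called higher at day 6 was 25% in each medium, where 27.8% and 28.3% of all genes were. The mean level of complex III lay at -0.26, -0.35 and -0.33 on the CDL and -0.29, -0.25 and -0.29 on the RDL arrays at day 4 relative to ES cells. The small subunit Uqcr10 read 1939, 1746 and 1676 in CDL and 1898, 2039 and 1812 in RDL cells at day 4, against 3144, 3363 and 3384 in ES cells. At day 6 it read 2180, 1786 and 2079 in CDL and 2609, 1739 and 1729 in RDL cells. No differentiated array reached the ES range, and the log2 differences were -0.88 and -0.78 in CDL and RDL cells at day 4 and -0.71 and -0.73 at day 6 (adjusted p at most 0.00017). Both other probe sets of Uqcr10 were lower in all 4 comparisons, by -0.98 to -1.82.

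The large core proteins of complex III moved in opposite directions at day 6. Uqcrc1 read 990, 1420 and 893 in CDL and 819, 1367 and 1272 in RDL cells at day 6, against 2051, 2070 and 2356 in ES cells. All 6 day 6 arrays lay below ES cells, by -0.99 in CDL (adjusted p = 0.00012) and -0.93 in RDL cells (adjusted p = 0.00023). At day 4 the differences of Uqcrc1 were -0.41 in CDL (adjusted p = 0.058) and -0.61 in RDL cells (adjusted p = 0.0067). Uqcrc2 read 3075, 2171 and 2692 in CDL and 2598, 2397 and 2465 in RDL cells at day 6, against 2103, 2008 and 1821 in ES cells, and was higher by 0.41 and 0.33. The hinge protein Uqcrh was also higher at day 6, by 0.43 in CDL and 0.28 in RDL cells, and Uqcrfs1, the Rieske iron-sulphur protein, was not called in any comparison with ES cells.

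Complex II, succinate dehydrogenase, which also works in the tricarboxylic acid cycle, changed in its iron-sulphur subunit and in one membrane anchor. Sdhb, the iron-sulphur subunit, read 1561, 1497 and 1507 in CDL and 1669, 1489 and 1519 in RDL cells at day 4, against 1754, 1736 and 1934 in ES cells. At day 6 Sdhb read 2494, 2324 and 2369 in CDL and 2627, 2012 and 1928 in RDL cells. The day 4 arrays lay below ES cells, but -0.25 in CDL (adjusted p = 0.046) was lost in 13 of 27 alternative settings and -0.21 in RDL cells did not pass (adjusted p = 0.08). At day 6 Sdhb was higher by 0.40 in CDL (adjusted p = 0.0021) and 0.26 in RDL cells (adjusted p = 0.031). This RDL call was lost in 6 of 27 alternative settings, among them leaving out RDL replicate 1, ES replicate 1 or ES replicate 2. Sdhd, a membrane anchor, was higher at day 6 by 0.28 in CDL and 0.20 in RDL cells (adjusted p = 0.0097 and 0.049). Its RDL call was lost in 18 of 27 alternative settings, and its CDL call without CDL replicate 1 and with the mean of its probe sets. The flavoprotein Sdha ran from -0.16 to 0.10 and the other anchor Sdhc from -0.19 to -0.10 against ES cells, and neither was called.

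Cycs, which encodes cytochrome c, the carrier between complexes III and IV, read 5254, 5471 and 5788 in CDL and 5779, 5624 and 5907 in RDL cells at day 4, against 5060, 5130 and 4460 in ES cells. At day 6 it read 6212, 4462 and 5943 in CDL and 5617, 5477 and 5501 in RDL cells. The day 4 arrays lay above the ES arrays, but only the RDL difference of 0.24 passed (adjusted p = 0.04), and it was lost in 7 of 27 alternative settings. The other 3 differences were 0.17, 0.17 and 0.18.

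Complex V genes were called in both directions at day 6. At day 4, 7 of 17 were lower in CDL and 5 in RDL cells with none higher. At day 6, 5 were lower and 5 higher in CDL and 5 lower and 3 higher in RDL cells. The share called lower at day 4 was 41.2% in CDL and 29.4% in RDL cells, where 29.6% and 29.5% of all genes were. No complex V gene was higher at day 4, where 26.6% and 27.6% of all genes were. At day 6, 29.4% were lower in each medium, where 33.3% of all genes were. The share called higher at day 6 was 29.4% in CDL and 17.6% in RDL cells, where 27.8% and 28.3% of all genes were. Atp5b, the catalytic beta subunit, was lower by -0.22 and -0.33 in CDL and RDL cells at day 4 and by -0.53 and -0.52 at day 6, and Atp5a1, the alpha subunit, by -0.35 and -0.44 at day 4 and -0.49 and -0.38 at day 6. The CDL call of Atp5b at day 4 was lost without 2 of the ES or 2 of the CDL replicates, each left out singly. Atp5e, the epsilon subunit of the central stalk, was higher at day 6. It read 3660, 2932 and 3164 in CDL and 3181, 3066 and 3093 in RDL cells at day 6, against 2216, 2185 and 2370 in ES cells, with no overlap and differences of 0.52 (adjusted p = 1.8e-05) and 0.46 (adjusted p = 5.8e-05). Atp5o, which joins the head to the outer stalk, was higher in CDL cells at day 6 by 0.39, though with the mean of its probe sets it was 0.23 and did not pass (adjusted p = 0.15).

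The ring of the ATP synthase is built from subunit c, and Atp5g1, Atp5g2 and Atp5g3 encode the same mature protein with different import signals. The 3 genes behaved differently. Atp5g1 read 1515, 1171 and 1228 in CDL and 1273, 1269 and 1415 in RDL cells at day 4, against 2111, 2398 and 2496 in ES cells. At day 6 Atp5g1 read 1306, 1300 and 1299 in CDL and 1322, 1284 and 1327 in RDL cells. All 12 differentiated arrays were below the ES arrays and close to each other, with log2 differences of -0.84 and -0.82 in CDL and RDL cells at day 4 and -0.83 and -0.82 at day 6 (adjusted p at most 1.9e-06).

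Atp5g2 read 2714, 2751 and 2780 in CDL and 2663, 2781 and 2723 in RDL cells at day 4, against 2644, 2571 and 2707 in ES cells. At day 6 it read 3698, 3575 and 3764 in CDL and 3374, 2932 and 3043 in RDL cells. The day 4 arrays were not called against ES cells (0.06 and 0.04), whereas all day 6 arrays lay above them, by 0.48 in CDL (adjusted p = 4.6e-06) and 0.24 in RDL cells (adjusted p = 0.0032). The 2 other probe sets of Atp5g2 had mean intensities of 22.5 and 5.42, below the array median, and averaging them in gave -0.06 in RDL cells at day 6 and ended both day 6 calls. Atp5g3 was not called in any comparison, with differences from ES cells between -0.04 and 0.07.

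**Figure D5:**
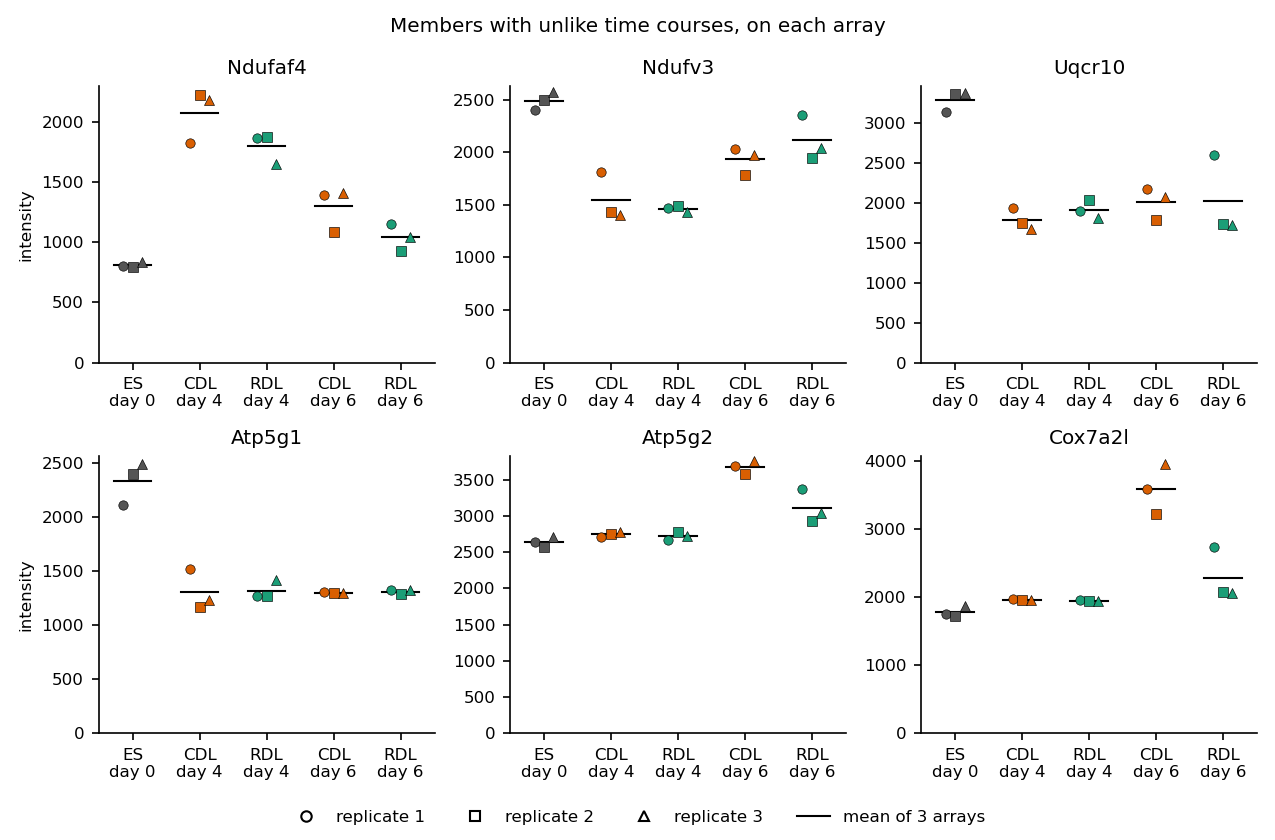
Intensity (linear axis from 0) of 6 members on each of the 15 arrays, by group, with the mean of 3 arrays as a line. Ndufaf4 is highest at day 4, Ndufv3 is lowest at day 4, Uqcr10 and Atp5g1 stay below ES cells on every differentiated array, and Atp5g2 and Cox7a2l are highest in CDL cells at day 6.

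Start-site regions of the subunit c genes, and of Ndufaf4 as the member that rose most, are printed because these genes moved apart. RefSeq windows in GRCm38.p6, from 250 bases before to 50 after the start site, were found for 75 of the 91 members, and 4 motifs of factors known to act on respiratory genes were searched on both strands without overlaps being removed. The NRF1 motif, GCGC and TGCGC with any base between them, was in the windows of 17 of the 75 members, 22.7%, and in 5.19% of 27025 genes. These 27025 are all genes with a window and were not limited to the genes tested here. The YY1 motif AAGATGGC was in 13.3% of members and 3.19% of genes, the ETS motif CCGGAAGT of GABPA in 6.67% and 4.31%, and the ERR motif TCAAGGTCA in 2.67% and 0.466%. In the stretches below, which cover the 150 bases before the start site 5′ to 3′ on the gene's strand, capitals mark a motif match. They lie at chr4:24897933-24898082 (plus strand) for Ndufaf4, chr11:96075632-96075781 (minus) for Atp5g1, chr15:102671048-102671197 (minus) for Atp5g2 and chr2:73911327-73911476 (minus) for Atp5g3.
Ndufaf4: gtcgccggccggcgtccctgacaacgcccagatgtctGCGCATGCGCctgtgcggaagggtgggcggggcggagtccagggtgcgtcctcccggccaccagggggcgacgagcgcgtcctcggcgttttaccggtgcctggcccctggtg
Atp5g1: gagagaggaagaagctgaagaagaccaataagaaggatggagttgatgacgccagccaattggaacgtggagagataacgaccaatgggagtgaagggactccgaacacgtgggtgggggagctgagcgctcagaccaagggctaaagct
Atp5g2: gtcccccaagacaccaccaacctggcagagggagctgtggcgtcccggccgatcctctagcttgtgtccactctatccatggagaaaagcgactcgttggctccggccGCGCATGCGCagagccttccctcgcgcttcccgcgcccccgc
Atp5g3: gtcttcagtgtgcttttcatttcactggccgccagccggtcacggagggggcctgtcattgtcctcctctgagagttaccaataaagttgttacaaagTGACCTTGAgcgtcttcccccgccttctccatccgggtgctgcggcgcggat

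The NRF1 match of Ndufaf4 begins 113 bases and that of Atp5g2 42 bases before the start site, and the ERR match of Atp5g3, on the opposite strand, 52 bases before it. Atp5g3 also has an NRF1 match in its window, outside the stretch shown, and Atp5g1 has a match to none of the 4. Members with the NRF1 motif were called in both directions. Of 16 tested members with it, 5 were lower and 2 higher in each medium at day 4. Of 56 tested members whose window lacks it, 26 were lower and 3 higher in CDL and 22 lower and 5 higher in RDL cells. Among all genes tested, 29.6% were lower and 26.6% higher in CDL and 29.5% and 27.6% in RDL cells at day 4. A match is a description of letters and not a bound site.

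Of 11 tested genes for regulators of respiratory genes, 3 were lower and 4 higher in CDL and 3 lower and 3 higher in RDL cells at day 4. At day 6, 5 were lower and 3 higher in CDL and 6 lower and 3 higher in RDL cells. Of all genes tested, 29.6% were lower and 26.6% higher in CDL and 29.5% and 27.6% in RDL cells at day 4. At day 6, 33.3% of all genes were lower in each medium, and 27.8% were higher in CDL and 28.3% in RDL cells. Nrf1, whose product binds the first motif, read 260, 208 and 234 in CDL and 249, 231 and 244 in RDL cells at day 4, against 438, 446 and 439 in ES cells. The log2 differences of Nrf1 were -0.88 in CDL and -0.84 in RDL cells at day 4, and at day 6 the RDL difference was -1.25. Gabpa was lower in all 4 groups, by -1.08 to -1.32. Esrrb, a naive pluripotency factor of the ERR family, was lower by -5.69 in RDL cells at day 4. In CDL cells at day 4 Esrrb read 216, 7.97 and 8.58, the high value being that of the replicate with ES marker signal, against 1222, 1015 and 1064 in ES cells. Esrra was lower in RDL cells at day 6 alone (-0.35), and Yy1 was lower at day 6 (-0.86 in CDL and -0.75 in RDL cells) but not past the threshold at day 4 (-0.35 in each). Pprc1, a coactivator related to PGC-1, was lower at day 6 by -1.03 in CDL and -1.21 in RDL cells. In the other direction Myc was higher by 1.41 to 1.80, Creb1 by 0.68 to 1.42 and Hif1a by 0.26 to 0.41 across the 4 comparisons. Ppargc1b, a coactivator of the PGC-1 family, was higher in CDL cells at day 4, by 0.97.

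For the gene lists that follow, the shares of all tested genes called lower and higher are 29.6% and 26.6% in CDL and 29.5% and 27.6% in RDL cells at day 4, and 33.3% and 27.8% in CDL and 33.3% and 28.3% in RDL cells at day 6. Of 13 tested genes for maintenance and transcription of mitochondrial DNA, 8 were lower and 1 higher in CDL and 7 lower and 1 higher in RDL cells at day 4, and 7 and 9 were lower with none higher at day 6. Polg, the mitochondrial DNA polymerase, was lower by -0.47 and -0.62 at day 4 and by -1.12 and -1.18 at day 6, in CDL and RDL cells in turn. ND5, the one complex I subunit on the array that is encoded in mitochondrial DNA, went the other way. ND5 read 5624, 4996 and 5535 in CDL and 5490, 4918 and 6651 in RDL cells at day 4, against 2913, 2815 and 2913 in ES cells, and was higher by 0.86 to 1.14 in the 4 comparisons. Slc25a4, an exchanger of ADP and ATP across the inner membrane that is known from heart and muscle, was higher in all 4 groups, by 0.72 and 0.82 in CDL and RDL cells at day 4 and by 1.03 and 1.08 at day 6.

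The supply of electrons was also represented. Of 8 tested genes for pyruvate dehydrogenase and its kinases and phosphatases, 5 were lower and none higher in each medium at day 4. Pdk1, a kinase that switches pyruvate dehydrogenase off, was lower by -1.03 in CDL and -1.33 in RDL cells, and Pdhb, a catalytic subunit, by -0.87 and -0.88. Of 13 tricarboxylic acid cycle genes, 4 were lower and 2 higher in CDL and 5 lower and 2 higher in RDL cells at day 4, with Idh3a at -0.96 and -1.12 and Dlst at 0.93 and 0.98. Of 76 mitochondrial ribosomal protein genes, 36 were lower and 10 higher in CDL and 29 lower and 12 higher in RDL cells at day 4, with medians of -0.25 and -0.18. Of 53 cytosolic ribosomal protein genes, 10 were lower and 4 higher in CDL and 7 lower and 3 higher in RDL cells, with medians of -0.03 and -0.01.

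Assembly factors of complex IV were called in both directions. Of 17 tested, 6 were lower and 3 higher in CDL and 5 lower and 4 higher in RDL cells at day 4. Cox17, a copper chaperone for complex IV, was lower by -0.85 and -0.78 at day 4 and by -0.97 and -1.31 at day 6, in CDL and RDL cells in turn, whereas Sco2, another copper chaperone, was higher by 0.93 and 0.84 at day 4 and by 0.90 and 0.81 at day 6. Among 9 tested assembly factors of complexes II and III, Ttc19, a complex III factor, was higher in all 4 groups, by 0.35 to 0.58. For ubiquinone synthesis and other electron donors, 6 of 16 genes were lower and 2 higher in CDL and 8 lower and 1 higher in RDL cells at day 4. Among them Gpd2, the mitochondrial glycerol phosphate dehydrogenase, was lower by -1.05 and -1.11, and Coq2, an enzyme of ubiquinone synthesis, was higher by 1.18 and 1.24.

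Between day 4 and day 6 in CDL medium, members were called higher more often than the tested genes as a whole. Of the 88 tested, 43 were higher and 7 lower at day 6, where 17.4% and 22% of all genes were higher and lower (39.4% called in all), and the median was 0.23 against -0.02 over all genes. Complex I gave 23 of 35 higher and none lower, complex V 6 of 17 higher and 1 lower, complex IV 5 of 15 higher and 3 lower, and complex III 3 of 8 higher and 1 lower. The largest rise was that of Ndufa6, 0.87 (standard error 0.11, adjusted p = 1.7e-05), followed by Cox7a2l (0.86), Ndufs8 (0.78), Sdhb (0.65) and Ndufa3 (0.62). Those that fell were led by Cox7a1 (-1.15), Ndufaf4 (-0.68) and Uqcrc1 (-0.58). The Cox7a1 value was -0.40 without CDL day 4 replicate 1, the array with ES marker signal, and the calls of Cox7a1 and Uqcrc1 were lost without CDL day 6 replicate 1 or 3.

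These counts moved with the 2 sets of day 6 arrays. Without CDL day 6 replicate 1, or without replicate 3, 33 members were called in place of 50, and 15 complex I subunits were higher in place of 23. With RDL replicate 1 and CDL replicates 1 and 3 all left out, 14 complex I subunits were higher and 3 lower. With the other 3 day 6 arrays left out instead, 28 were higher and none lower. Both removals were chosen after the data had been seen. The share of all genes called in each of these fits is not given here, so the shifts cannot be read as particular to the members.

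In RDL medium fewer members passed. Of the 88, 13 were higher and 2 lower at day 6 than at day 4, where 13.8% and 17.2% of all genes were higher and lower (31% called in all), and the median was 0.12 against -0.02 over all genes. The share of members called higher, 14.8%, was near that of all genes, and the share called lower, 2.27%, was below it. Complex I gave 8 higher and none lower, led by Ndufv3 (0.52, adjusted p = 0.00074), Ndufa3 (0.48) and Ndufa6 (0.47). Sdhb was higher by 0.47, Atp5e by 0.42 and Uqcrh by 0.30, while Ndufaf4 was lower by -0.78 and Cox7a2 by -0.27. Without RDL day 6 replicate 1, the array that stood apart, Uqcrh was at 0.18 and Ndufa3 at 0.28, and neither passed. Both calls were also lost without RDL day 4 replicate 3. With RDL replicates 2 and 3 and CDL replicate 2 left out, RDL day 6 is left with the single array that stood apart. The count of members from that fit is not a result about them. Atp5g2, at 0.19 (adjusted p = 0.025), no longer passed with the replicate number as a block in a fit of these groups alone (adjusted p = 0.11), and it was -0.04 with the mean of its probe sets.

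CDL and RDL media were compared directly at each day, in cells of the same line and sort. At day 4 no member passed, where 2.9% and 1.52% of all genes were higher and lower in CDL cells (4.41% called in all). At an unadjusted p under 0.05, limma counted 6 members, and 86 of the 88 differences were within 0.3 on the log2 scale, with a median standard error of 0.0939. The exception with the largest difference was Cox7a1, at 0.99 (adjusted p = 0.22), which rests on CDL replicate 1. At day 6 Cox7a2l, Ndufa6 and Atp5g2 were higher in CDL cells and none lower, where 3.68% and 3.94% of all genes were higher and lower (7.61% called in all). The share of members called higher, 3.41%, was near that of all genes, no member was lower, and 9 members passed at an unadjusted p under 0.05. Neither the counts at an unadjusted p nor the count within 0.3 was made over all genes tested. They cannot be read as particular to the members.

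Cox7a2l, which is known to join complexes III and IV into supercomplexes, had the largest difference between media among the members called. At day 6 it read 3588, 3218 and 3953 in CDL cells and 2730, 2068 and 2060 in RDL cells. At day 4 it read 1971, 1953 and 1953 in CDL cells and 1948, 1946 and 1939 in RDL cells. ES cells read 1743, 1726 and 1869. All CDL arrays were above all RDL arrays at day 6, by 0.65 (standard error 0.10, adjusted p = 0.00044), while at day 4 the difference was 0.01. Leaving out single arrays or either set of day 6 arrays kept the day 6 difference between 0.46 and 0.79. Against ES cells, Cox7a2l was higher at day 6 by 1.00 in CDL (adjusted p = 2.5e-07) and 0.35 in RDL cells (adjusted p = 0.0062), and its 2 other probe sets rose by 0.83 and 1.08 in CDL and by 0.32 and 0.49 in RDL cells.

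Ndufa6 was higher in CDL than in RDL cells at day 6 by 0.40 (adjusted p = 0.038) and Atp5g2 by 0.24 (adjusted p = 0.022). The Ndufa6 arrays read 2187, 1864 and 1810 in CDL and 1797, 1293 and 1367 in RDL cells, which do not overlap, but the call was lost in 12 of 27 alternative settings, among them leaving out any one of the 3 ES arrays. For Atp5g2 the call was lost in 8 of 27. Without RDL replicate 1 the number of members higher in CDL cells was 16 and none was lower, against 3 with all arrays, so this comparison depends on that array. The share of all genes called in that fit is not given here, so the rise cannot be read as particular to the members.

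The change of the medium effect between day 4 and day 6 was tested as an interaction. It passed for 2 members, Cox7a2l at 0.64 (adjusted p = 0.011) and Ndufs8 at 0.53 (adjusted p = 0.036), and for none in the other direction, where 2.31% and 3.08% of all genes passed upward and downward (5.39% in all). Ndufs8 read 3152, 2873 and 3317 in CDL and 2932, 2254 and 2389 in RDL cells at day 6. CDL exceeded RDL cells by 0.31 at day 6 (adjusted p = 0.076), with 1 RDL array inside the CDL range, and lay below them by -0.22 at day 4 (adjusted p = 0.29), so that neither medium difference passed alone. Without RDL day 6 replicate 1 the interaction passed for 13 members, all upward. The share of all genes that passed in that fit is not given here either.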

How the data were processed

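RNA was hybridised to Affymetrix Mouse 430 2.0 arrays after two-cycle labelling, per the labels' protocols. The deposited values are linear intensity per probe set, made with MAS5 per the submitters' processing notes, of a version not named there. Of 45101 probe sets, 64 controls were left out, and 34945 had 1 symbol in the platform annotation; of 932 with several symbols, 10 held a member and were not used. Each gene was represented by its probe set with the highest mean. Genes above the array median in at least 3 of 15 arrays were tested on log2(deposited intensity + 12.6), the constant being the median over arrays of the 25th percentile, in one limma fit of all arrays (limma 3.58.1, R 4.3.3; lmFit and eBayes with an intensity trend) with 9 comparisons. Adjusted p-values are Benjamini-Hochberg values of two-sided limma tests over 12400 genes. The number of arrays limits precision. On simulated data for RDL day 4 against ES cells, 27 of 50 genes with a log2 change of 0.5 were recovered. With a change of 0.25, 0 of 50 were recovered, and there were 4 false calls among 12200 unchanged genes. In the real comparison 57.1% of the 12400 genes were called, so the adjusted threshold was stricter in the simulation. The simulated recovery therefore does not measure that of the real tests. Members named are the complex II subunits, Cycs, the isoform families, and in each comparison the largest called differences overall and by complex. Members and gene lists were chosen with earlier results of these data known. Same-numbered replicates deviated together over genes, with r over 0.1 for every pair, between RDL day 6 and RDL day 4 cells (r = 0.28, 0.26 and 0.22), which are of different lines; r was also positive for every pair, but not over 0.1 for each, between CDL and RDL cells at day 4 (0.10, 0.24 and 0.096) and between CDL day 6 and CDL day 4 cells (0.072, 0.14 and 0.14). No 2 arrays held identical values.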

Additional observations from a re-analysis of the deposited data

Results flagged for a closer look

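The medium effect differed between day 6 and day 4 for 2 members by the interaction test. For Cox7a2l the difference between CDL and RDL cells was larger at day 6 by 0.644 on the log2 scale, and the call was kept in all 27 alternative settings. For Ndufs8 it was larger by 0.532, and the call was lost in 15 of 27 alternative settings, with 0.36 (adjusted p = 0.11) when RDL day 6 replicates 2 and 3 and CDL day 6 replicate 2 were left out. Line, strain and sort reporter also differ between the days and cannot be told apart from time.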

How the results depend on the processing

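Of 3326 refits of 123 results on single members, 3125 kept direction and call, 199 lost the call and 2 changed sign; 81 results were kept in every setting. The sign changes were those of Atp5g2 with the mean of a gene's probe sets, at -0.0597 for RDL day 6 against ES cells and -0.0449 against RDL day 4. Leaving out single replicates gave 36 to 52 and 30 to 48 called members for CDL and RDL day 4 against ES cells, 37 to 51 and 32 to 44 for CDL and RDL day 6 against ES cells, 33 to 60 and 11 to 19 for day 6 against day 4 in CDL and RDL cells, 0 to 2 and 1 to 16 for CDL against RDL at day 4 and day 6, and 1 to 13 for the interaction. The highest counts between media came without RDL day 6 replicate 1; without CDL day 6 replicate 2 there were 8 at day 6 and 9 for the interaction. Without a filter on dim genes, 1 member was called between media at day 4. The interaction was called for 1 member with the mean of probe sets, without the intensity trend or in a fit of only the groups compared, and that last fit also called 1 member between media at day 6. With the first CDL day 4 array and the first RDL day 6 array both left out, 2 members were called between media at day 4, 14 at day 6 and 12 for the interaction. Of the removals chosen after seeing the data, leaving out RDL day 6 replicate 1 and CDL day 6 replicates 1 and 3 gave 6, 6 and 5, and leaving out the other day 6 arrays gave 6 at day 4, 1 for the interaction and 55 for RDL day 6 against day 4. With the replicate block, the counts were 46 and 42 for CDL and RDL day 4 and 47 and 44 for CDL and RDL day 6 against ES cells, 53 and 18 for day 6 against day 4 in CDL and RDL cells, 0 and 4 between media, and 2 for the interaction. The share of all genes called in each refit is not given beside these counts, so they cannot be read as particular to the members. The cause of these shifts was not tested.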
